A study of Mus musculus with 4 samples.

Results

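Msln was about 11.3 times as abundant in K-Ras Mll4-/- lung tumours as in K-Ras tumours, while the genes that define mesothelial cells, Upk3b, Wt1 and Lrrn4, stayed at 1 to 23 reads per library in both genotypes. The 8 genes described here mark the mesothelium, the flat cell layer that covers the lung, or belong to the uroplakins, membrane proteins of the bladder surface. They are Msln, Upk3b, Upk1b, Upk1a, Wt1, Lrrn4, Gpm6a and Cpe. They were taken by symbol, and all 8 were found among the 24391 genes counted. They were selected on read counts in the genotype comparison described below, with the high Msln counts of K-Ras Mll4-/- tumours already known. Their differences between genotypes are therefore given as a description, with no p-value.

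RNA was sequenced from 4 mouse lung tumour samples, 2 of each genotype. K-Ras tumours came from mice with the Cre-activatable allele K-Ras LSL-G12D, in which a stop cassette between lox sites keeps the mutant oncogene silent until it is removed. K-Ras Mll4-/- tumours carried the same allele together with floxed Mll4 (Mll4 fl/fl), so the oncogene is common to both groups. The Cre source and promoter, the strain, the age of the mice, any pooling of animals and whether replicates came from separate mice are not given in the sources used here, so any p-value measures only the spread between these samples, which may be technical. In all samples the tumours were digested to single cells and cells bearing CD45, a leukocyte surface protein, were removed with magnetic beads before RNA extraction.

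Mesothelial cells arise from the embryonic coelomic lining and combine epithelial junctions and keratins with genes otherwise known from mesenchyme. Mesothelin, the product of Msln, is a surface glycoprotein made as a precursor whose other fragment is megakaryocyte potentiating factor. It is abundant on healthy mesothelium, and it is also found on many carcinomas, lung adenocarcinoma among them. The comparison asks whether Msln was higher together with other mesothelial genes or without them.

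Libraries held 26683033 to 36677987 reads in genes, with overlapping ranges, and 3 reads, taken as the floor of detection, were worth 0.0830 to 0.114 CPM (reads relative to library size, with edgeR's TMM scaling). This floor covers counting error only. Of the 16001 genes that passed the count filter, 6 were called at an adjusted p under 0.05 (edgeR quasi-likelihood test, Benjamini-Hochberg), or 0.0375%, and all were higher in K-Ras Mll4-/- tumours. DESeq2 called 813 higher and 800 lower genes, and without K-Ras replicate 1 edgeR called 110 higher and 418 lower. Kmt2d, the current symbol of Mll4, was at 367 and 317 CPM in K-Ras Mll4-/- replicates 1 and 2 and at 395 and 526 CPM in K-Ras replicates 1 and 2 (log2 fold change -0.43, SE 0.21, edgeR adjusted p = 0.302). Gene totals do not resolve a loss of single exons, so the genotype is taken from the labels. K-Ras replicate 2 stood apart in airway genes, with 965 CPM summed over 8 ciliated-cell markers against 171 CPM in K-Ras replicate 1.

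Of the 8 genes, 6 passed the count filter and 0 were called, against 0.0375% of all genes tested. Upk3b and Wt1 did not pass. DESeq2 and an edgeR fit blocked on replicate number, which called 10.2% and 1.36% of the genes they tested, each had Msln alone of the 8 among their calls, and limma-voom called 0. Since the genes were selected on these counts, nothing is read from which of them a tool calls. The median log2 fold change of the 6 was -0.22, beside -0.01 over all genes tested. Both K-Ras Mll4-/- samples lay above both K-Ras samples for Msln and Cpe, and below them for Upk1b, among the 6, where 29.9% and 28.5% of all genes tested separated upward and downward. Wt1, below the filter, also separated downward, on 2 to 5 reads per library.

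**Figure D1:**
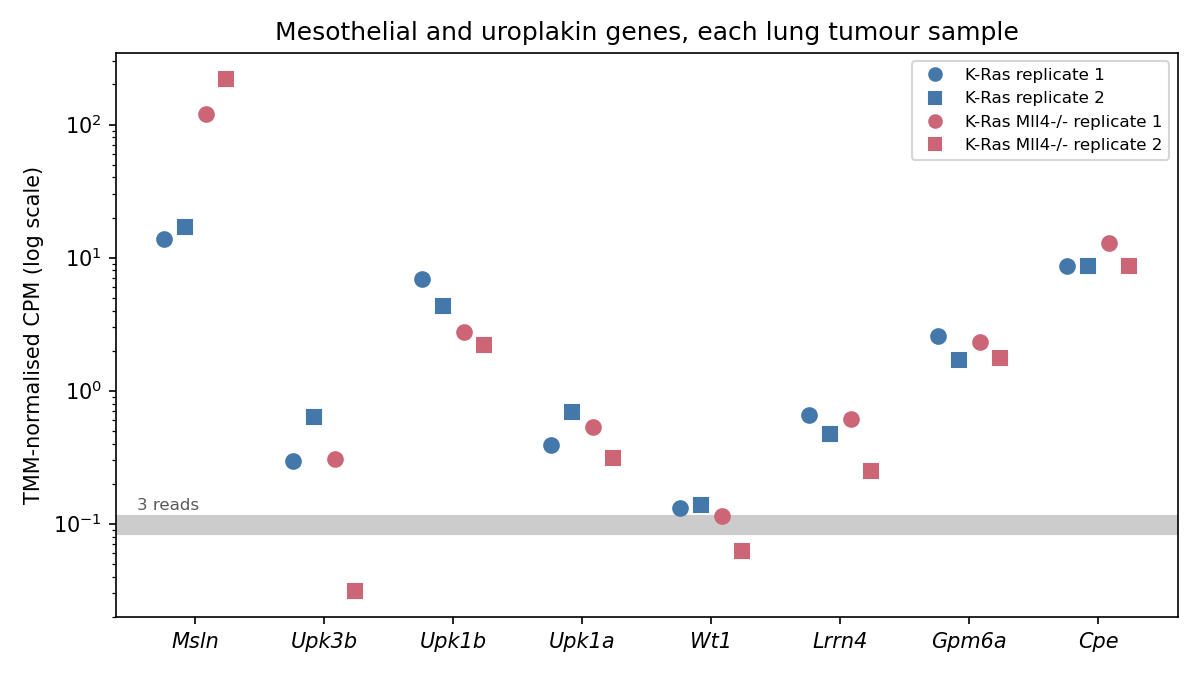
TMM-normalised CPM on a log axis for the 8 genes in each of the 4 samples, with the value of 3 reads per library as a grey band. Msln sits at 120 and 221 CPM in K-Ras Mll4-/- samples against 13.8 and 17.0 CPM in K-Ras samples, while Upk3b, Wt1 and Lrrn4 lie within 0.0310 to 0.654 CPM in all 4.

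Msln was counted at 421 and 615 reads in K-Ras replicates 1 and 2, and at 3159 and 7134 reads in K-Ras Mll4-/- replicates 1 and 2. These reads correspond to 13.8 and 17.0 CPM, and to 120 and 221 CPM. The groups did not overlap, and the lower K-Ras Mll4-/- sample was several times the higher K-Ras sample. Means were 15.4 ± 2.30 CPM and 171 ± 71.4 CPM (SD, n = 2 each), so the K-Ras Mll4-/- samples also varied more between themselves. The log2 fold change was 3.47 (SE 0.36), in place 90 from the top among the 16001 genes tested. Over summed reads the ratio was 11.3, with a 95% exact binomial interval of 10.6 to 12.1 that covers counting error only. It was positive in all 14 alternative fits, from 2.96 without K-Ras Mll4-/- replicate 2 to 3.85 without K-Ras Mll4-/- replicate 1.

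Wt1 encodes a zinc finger transcription factor of the mesothelium. It had 4 and 5 reads in K-Ras replicates 1 and 2, and 3 and 2 reads in K-Ras Mll4-/- replicates 1 and 2. All 4 values lie at or near the floor of 3 reads, with no more in the samples rich in Msln. The ratio of K-Ras Mll4-/- to K-Ras was 0.634, with a counting interval of 0.167 to 2.11. That interval leaves out the spread between samples.

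Upk3b, a uroplakin that is transcribed in mesothelium, had 9 and 23 reads in K-Ras replicates 1 and 2, and 8 and 1 reads in K-Ras Mll4-/- replicates 1 and 2. Its lowest value, 0.0310 CPM, belonged to the sample with the highest Msln. The groups overlapped, and the ratio was 0.321 with a counting interval of 0.135 to 0.688.

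Lrrn4, a leucine-rich repeat membrane protein used as a mesothelial marker, had 20 and 17 reads in K-Ras replicates 1 and 2. It had 16 and 8 reads in K-Ras Mll4-/- replicates 1 and 2, at 0.609 and 0.248 CPM. The groups overlapped (log2 fold change -0.40, SE 0.62). The difference was -1.16 without K-Ras Mll4-/- replicate 1 and 0.11 without K-Ras Mll4-/- replicate 2, so each of these libraries decides its size or direction. The ratio was 0.740, with a counting interval of 0.423 to 1.27.

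Upk3b, Wt1 and Lrrn4 together gave 33 and 45 reads in K-Ras replicates 1 and 2 and 27 and 11 reads in K-Ras Mll4-/- replicates 1 and 2. Scaled to library size, their sum was 1.08 and 1.25 CPM in K-Ras replicates 1 and 2. It was 1.03 and 0.341 CPM in K-Ras Mll4-/- replicates 1 and 2, so only replicate 2 was clearly lower. The log2 level of Msln minus the mean log2 level of these 3 genes was 5.23 and 5.34 in K-Ras replicates 1 and 2. It was 8.41 and 10.48 in K-Ras Mll4-/- replicates 1 and 2. The difference of the group means was 4.16, with a within-group SD of 1.04, and it stayed between 3.13 and 5.20 when any sample was left out. With prior counts of 0.5 and 5 it was 4.39 and 3.94. With Upk3b, Lrrn4 or Wt1 alone in place of the mean it was 4.83, 3.84 and 3.81. Its size thus depends on the few reads of these genes. Since Msln and these genes were selected on this contrast, the ratio and its ranges are a description and test nothing. Counted directly, there were 46.8 and 26.7 Msln reads for each Upk3b read in K-Ras replicates 1 and 2. There were 395 in K-Ras Mll4-/- replicate 1 and 7134 in K-Ras Mll4-/- replicate 2, where the divisor is 1 read. In these samples, then, the higher Msln came without more reads of Upk3b, Wt1 and Lrrn4. Of the 7 further mesothelial markers tested, described below, 2 had a positive log2 fold change and 5 a negative one. In bulk samples fewer cells of a type and less RNA per cell cannot be told apart.

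**Figure D2:**
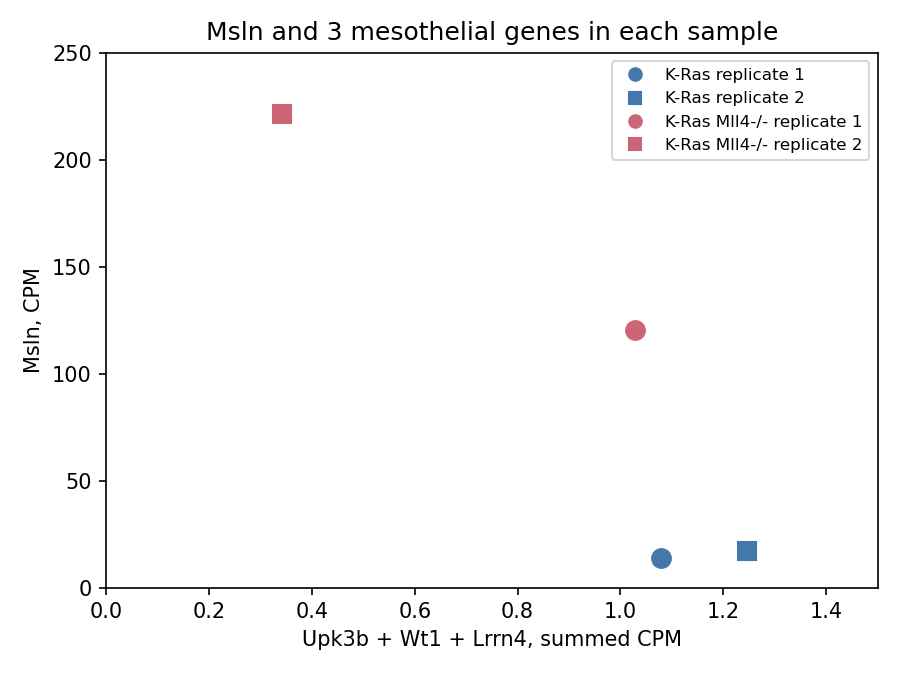
Msln in CPM (vertical) against the summed CPM of Upk3b, Wt1 and Lrrn4 (horizontal) for each of the 4 samples. The K-Ras Mll4-/- samples lie highest in Msln, at 120 and 221 CPM, with summed mesothelial levels of 1.03 and 0.341 CPM against 1.08 and 1.25 CPM in K-Ras samples.

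The stretches before the starts of Upk3b and Lrrn4, the mesothelial genes that stayed low, are printed because these genes are the yardstick against which Msln is read. They come from the RefSeq promoter table, which held 4 of the 8 genes (Upk3b, Upk1a, Lrrn4 and Gpm6a) with 5 starts. Each is 250 bases long, in GRCm38.p6, 5′ to 3′ on the strand of the gene, and the capitals mark matches to GGAATG on either strand, the M-CAT core bound by TEAD factors. The window of Upk3b is chr5:136038246-136038495 on the plus strand and that of Lrrn4 is chr2:132880863-132881112 on the minus strand. The submitters' processing notes name mm9, so these coordinates are not those of the counting.
Upk3b: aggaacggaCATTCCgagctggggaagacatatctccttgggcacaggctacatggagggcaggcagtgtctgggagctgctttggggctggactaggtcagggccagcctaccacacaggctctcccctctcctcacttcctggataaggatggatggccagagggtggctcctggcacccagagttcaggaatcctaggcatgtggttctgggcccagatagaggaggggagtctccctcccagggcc
Lrrn4: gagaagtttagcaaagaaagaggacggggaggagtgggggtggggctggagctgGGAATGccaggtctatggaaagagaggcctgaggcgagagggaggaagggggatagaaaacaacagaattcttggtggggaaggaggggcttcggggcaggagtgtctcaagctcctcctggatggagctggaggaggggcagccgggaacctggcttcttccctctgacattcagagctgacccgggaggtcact

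GGAATG was found before 3 of the 5 starts, in Upk3b, Lrrn4 and Gpm6a, and in 12.6% of the 32851 windows of that length in the table. The AP-1 motif TGANTCA, the GC box GGGCGG and the zinc finger motif GCGTGGGNG, which do not overlap GGAATG, were found before 0 of the 5, against 6.75%, 32.7% and 1.65% of all windows. These matches describe letters, and no binding was measured.

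Upk1b and Upk1a encode tetraspanins that pair with Upk3a and Upk2 in the plaques of the bladder surface. Upk1b was at 6.93 and 4.32 CPM in K-Ras replicates 1 and 2 and at 2.74 and 2.20 CPM in K-Ras Mll4-/- replicates 1 and 2. Both K-Ras Mll4-/- samples were thus below both K-Ras samples, the opposite order to Msln. The means were 5.62 ± 1.85 and 2.47 ± 0.381 CPM (SD, n = 2 each), and the log2 fold change was -1.18 (SE 0.36). It was negative in all 14 alternative fits, from -1.50 without K-Ras replicate 2 to -0.80 without K-Ras replicate 1.

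Upk1a, the closest relative of Upk1b among the 8, had 12 and 25 reads in K-Ras replicates 1 and 2 and 14 and 10 reads in K-Ras Mll4-/- replicates 1 and 2. The groups overlapped, with a log2 fold change of -0.38 (SE 0.58) and a counting interval for the ratio of 0.423 to 1.27. Without K-Ras Mll4-/- replicate 1 the difference was -0.80, without K-Ras Mll4-/- replicate 2 it was -0.04, without K-Ras replicate 1 it was -0.72, and without K-Ras replicate 2 it was 0.08.

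Gpm6a, a membrane glycoprotein of the proteolipid family known from neurons and used as a mesothelial marker, was at 2.58 and 1.69 CPM in K-Ras replicates 1 and 2. It was at 2.32 and 1.77 CPM in K-Ras Mll4-/- replicates 1 and 2. Both K-Ras Mll4-/- values lay inside the K-Ras range, with a log2 fold change of -0.06 (SE 0.40) and a counting interval for the ratio of 0.746 to 1.24. Its sign turned with the sample left out, from -0.35 without K-Ras replicate 2 to 0.28 without K-Ras replicate 1.

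Cpe, the carboxypeptidase that trims prohormones in secretory granules, was at 8.60 and 8.66 CPM in K-Ras replicates 1 and 2. It was at 12.8 and 8.72 CPM in K-Ras Mll4-/- replicates 1 and 2. The groups separated only narrowly, since K-Ras Mll4-/- replicate 2 lay close to both K-Ras samples. The log2 fold change of 0.32 (SE 0.26) shrank to 0.02 without K-Ras Mll4-/- replicate 1, so that library decides its size. Cpe and Gpm6a are transcribed in several cell types, and their levels do not trace mesothelium alone.

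Per kilobase of exon, the order of mean levels in K-Ras tumours was Msln at 5.02, Cpe at 3.31, Upk1b at 2.69, Gpm6a at 0.664, Upk1a at 0.381, Lrrn4 at 0.151, Upk3b at 0.132 and Wt1 at 0.0217 CPM per kb. In K-Ras Mll4-/- tumours Msln was at 55.8 CPM per kb and Cpe, next in order, at 4.12 CPM per kb. In the K-Ras samples the ranges of Cpe and Upk1b per kb overlapped, as did those of Lrrn4 and Upk3b, so those neighbours are not separated by their spread. Msln made up 41.3% and 50.6% of the reads of the 8 genes in K-Ras replicates 1 and 2, and 86.1% and 94.3% in K-Ras Mll4-/- replicates 1 and 2. The other 7 genes summed to 19.6 and 16.6 CPM in K-Ras replicates 1 and 2 and to 19.4 and 13.3 CPM in K-Ras Mll4-/- replicates 1 and 2, so without Msln the groups overlapped.

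A wider list of mesothelial markers held 13 genes, of which 12 were counted and 7 passed the filter. Muc16, the mucin that binds mesothelin, was not matched by symbol and is not analysed here. With edgeR 0 of the 7 were called, against 0.0375% of all genes tested, and 1 had an unadjusted p under 0.05, against 21.8%. DESeq2, limma-voom and the replicate block also called 0. The median log2 fold change was -0.27, beside -0.01 over all genes tested, and it ranged from -0.40 without K-Ras replicate 2 to -0.08 without K-Ras Mll4-/- replicate 1. The other 5 counted genes failed the filter, all of them at 13 reads or fewer in every library. They were Calb2, the calcium-binding protein calretinin, Bnc1, Nkain4, Tbx18 and Tm4sf5. Calb2 was at 0 reads in K-Ras replicate 1 and in K-Ras Mll4-/- replicate 2, and Bnc1, a mesothelial zinc finger factor, at 0 reads in K-Ras Mll4-/- replicate 1.

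Among the 7 that passed, Rspo1, a secreted Wnt amplifier, had 13 reads in each K-Ras sample and 8 and 11 reads in K-Ras Mll4-/- replicates 1 and 2. Aldh1a2, which makes retinoic acid, was at 2.65 and 1.27 CPM in K-Ras replicates 1 and 2 and at 1.03 and 2.20 CPM in K-Ras Mll4-/- replicates 1 and 2. Its groups overlapped, as did those of Cldn15 and Has1, with log2 fold changes of -0.51 (SE 0.80) and -0.10 (SE 0.36). Igfbp6, an IGF-binding protein shared with fibroblasts, had the 1 unadjusted p under 0.05 (log2 fold change -0.71, SE 0.23, edgeR adjusted p = 0.201).

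Efemp1 and Pkhd1l1 were the listed genes with higher values in K-Ras Mll4-/- tumours. Efemp1, a matrix protein shared with fibroblasts, was at 11.7 and 21.8 CPM in K-Ras replicates 1 and 2 and at 27.1 and 34.4 CPM in K-Ras Mll4-/- replicates 1 and 2 (log2 fold change 0.88, SE 0.35, edgeR adjusted p = 0.244). Pkhd1l1 differed less (log2 fold change 0.32, SE 0.29, edgeR adjusted p = 0.544). Neither was near the size of the Msln difference. The summed level of the 12 counted genes was 29.8 and 41.8 CPM in K-Ras replicates 1 and 2 and 42.01 and 49.95 CPM in K-Ras Mll4-/- replicates 1 and 2, higher in the latter by a narrow margin. Efemp1 carried that order. Without it, a sum taken after its values were seen, the list gave 18.1 and 20.1 CPM in K-Ras replicates 1 and 2. In K-Ras Mll4-/- replicates 1 and 2 it gave 14.9 and 15.5 CPM. Most of this lower sum rests on Igfbp6, at 8.08 and 9.52 CPM in K-Ras replicates 1 and 2. Igfbp6 was at 5.10 and 5.65 CPM in K-Ras Mll4-/- replicates 1 and 2, so the reversed order does not describe the other genes.

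**Figure D3:**
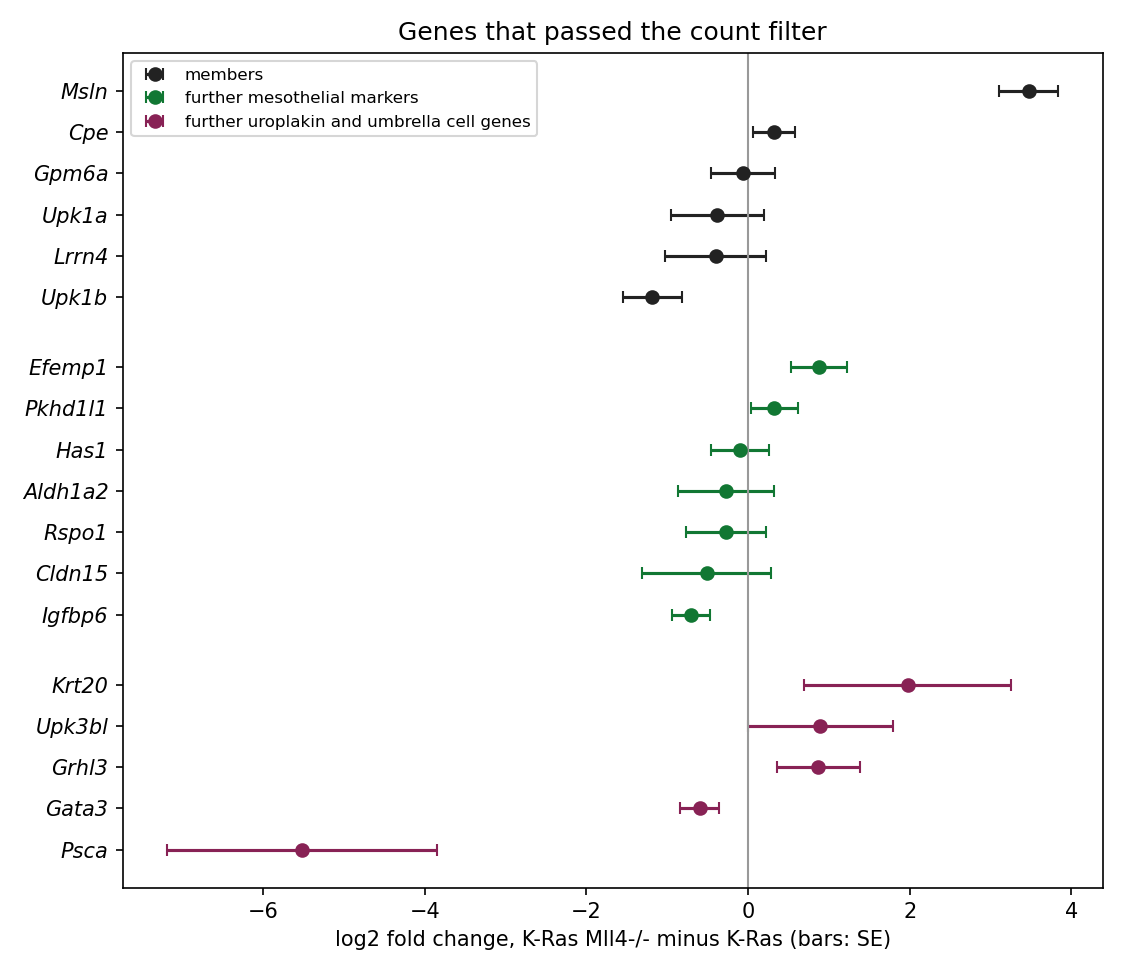
Log2 fold change of K-Ras Mll4-/- minus K-Ras (horizontal, bars are SE from the edgeR fit) for the genes that passed the count filter among the 8 members, the further mesothelial markers and the further uroplakin and umbrella cell genes. Msln lies at 3.47, apart from the other members between -1.18 and 0.32 and from the further mesothelial markers between -0.71 and 0.88.

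The other uroplakins and genes of the bladder's superficial umbrella cells formed a list of 8, of which 5 passed the filter. EdgeR called 0, with 1 at an unadjusted p under 0.05, against 21.8% of all genes tested. DESeq2, with 10.2% of its genes called, called Psca lower, and limma-voom and the replicate block called 0. Upk2 had 0 reads in both K-Ras samples and 1 and 2 reads in K-Ras Mll4-/- replicates 1 and 2. Upk3a had between 1 and 4 reads in every library. The partners with which Upk1a and Upk1b build plaques were therefore at or near the floor in both genotypes. Snx31, a sorting protein of umbrella cells, had at most 2 reads per library.

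Upk3bl, the gene next to Upk3b, was at 0.131 and 0.636 CPM in K-Ras replicates 1 and 2 and at 0.419 and 1.02 CPM in K-Ras Mll4-/- replicates 1 and 2, with overlapping groups. Krt20, a keratin of umbrella and gastrointestinal cells, was at 0.491 and 3.24 CPM in K-Ras replicates 1 and 2 and at 1.71 and 13.1 CPM in K-Ras Mll4-/- replicates 1 and 2. Its replicates differed more than its groups, which overlapped (log2 fold change 1.98, SE 1.28, edgeR adjusted p = 0.414).

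Psca, a surface antigen of urothelium and stomach, was at 7.72 and 0.470 CPM in K-Ras replicates 1 and 2 and at 0.0762 and 0.0931 CPM in K-Ras Mll4-/- replicates 1 and 2, where it had 2 and 3 reads. Both K-Ras samples lay above both K-Ras Mll4-/- samples, with K-Ras replicate 1 far above the rest (log2 fold change -5.52, SE 1.67, edgeR adjusted p = 0.189). Grhl3 and Gata3, transcription factors of the urothelium and other tissues, had log2 fold changes of 0.87 (SE 0.51, edgeR adjusted p = 0.374) and -0.60 (SE 0.25, edgeR adjusted p = 0.249). The median over the 5 was 0.87, but it was -0.13 without K-Ras Mll4-/- replicate 2, 0.20 without K-Ras replicate 1 and 1.55 without K-Ras replicate 2, so it has no stable direction.

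The nearest relatives of the 8 genes were read as a list of 16, of which 14 passed the filter. EdgeR called 0, with 1 at an unadjusted p under 0.05, against 21.8% of all genes tested. The median log2 fold change was -0.27. Mslnl, the mesothelin-like gene that lies beside Msln, had 11 to 15 reads in every library, with a log2 fold change of 0.15 (SE 0.49). Narfl (now Ciao3), an iron-sulfur protein gene on the other side of Msln, was at 19.9 and 18.2 CPM in K-Ras replicates 1 and 2 and at 17.2 and 17.7 CPM in K-Ras Mll4-/- replicates 1 and 2 (log2 fold change -0.13, SE 0.15). Neither neighbour shared the difference of Msln. Otoa and Strc, further members of the mesothelin family, had at most 27 reads per library.

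Tspan8, a tetraspanin like Upk1a and Upk1b, was at 82.3 and 109 CPM in K-Ras replicates 1 and 2 and at 229 and 247 CPM in K-Ras Mll4-/- replicates 1 and 2 (log2 fold change 1.31, SE 0.19, edgeR adjusted p = 0.135). It was called by DESeq2 and by the fit with the replicate block and not by edgeR without the block. DESeq2 called 10.2% of the genes it tested and the replicate block 1.36%. Cpn1 and Gpm6b, relatives of Cpe and Gpm6a, had log2 fold changes of -1.01 (SE 0.47) and -0.72 (SE 0.28). Beside Upk3b on its other side, Dtx2 had a log2 fold change of -0.16 (SE 0.18), and B4galt4, a neighbour of Upk1b, of -0.75 (SE 0.28). The other neighbour of Upk1b, counted as 4930435E12Rik (now Tex55), had 0 reads in all 4 libraries.

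Profiles closest to Msln were sought among 11905 other genes with a mean of at least 5 CPM, by the root mean square difference of log2 CPM centred on each gene's mean over the 4 samples. The 5 closest were Wnt7a (0.0664), Tenm4 (0.0722), Stc2 (0.149), Adcyap1 (0.199) and Ank1 (0.212). Wnt7a, a secreted Wnt ligand, was at 7.33 and 8.83 CPM in K-Ras replicates 1 and 2 and at 57.9 and 107 CPM in K-Ras Mll4-/- replicates 1 and 2. Tenm4, a teneurin adhesion receptor, was at 11.5 and 12.6 CPM in K-Ras replicates 1 and 2 and at 93.5 and 184 CPM in K-Ras Mll4-/- replicates 1 and 2. Like Msln, all 5 were highest in K-Ras Mll4-/- replicate 2 and lowest in K-Ras replicate 1. With 4 samples this likeness carries little more than the group difference and the order within groups. For Upk3b, whose profile rests on 1 to 23 reads, the closest were Mmp8, Gm3336, Mpp3, Bex4 and Sorbs2, at 0.324 to 0.376.

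**Figure D4:**
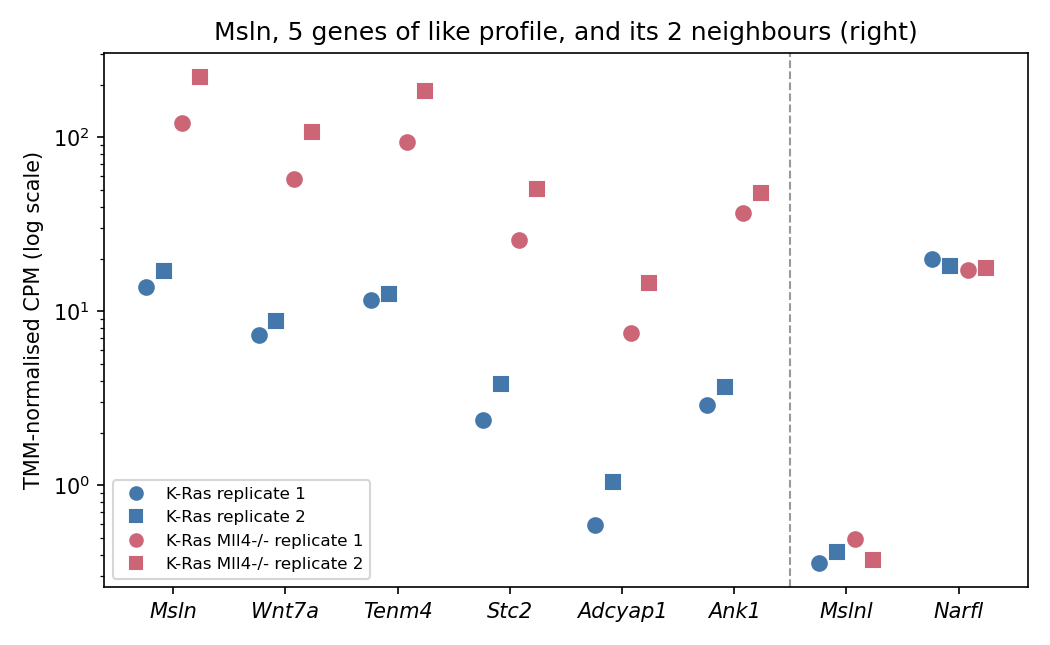
TMM-normalised CPM on a log axis in each of the 4 samples for Msln, the 5 genes closest to it in profile, and, right of the dashed line, the genes on either side of it. The 5 genes of like profile are higher in both K-Ras Mll4-/- samples, while Mslnl lies between 0.360 and 0.495 CPM and Narfl between 17.2 and 19.9 CPM in all samples.

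Most genes of a simple epithelial list, keratins and cell adhesion genes of epithelia, stood higher in the same samples as Msln. Of 8 listed, 7 were higher in both K-Ras Mll4-/- samples than in both K-Ras samples, as were 29.9% of all genes tested, and 1, Cldn4, was lower in both. All 8 had an unadjusted p under 0.05, against 21.8% of all genes tested. The list was chosen with earlier results of these data known, so its p-values and calls are a description and test nothing. EdgeR and limma-voom called 0, DESeq2 called all 8, against 10.2% of the genes it tested, and the replicate block called Krt7 and Krt19, against 1.36%. Krt7, Krt18 and Krt19 had log2 fold changes of 2.51 (SE 0.39), 2.07 (SE 0.30) and 1.89 (SE 0.51), with edgeR adjusted p-values of 0.144, 0.136 and 0.178. The list summed to between 1103 and 1839 CPM in K-Ras samples and between 4338 and 4718 CPM in K-Ras Mll4-/- samples, with none of its genes at 0. The part of epithelial content in the Msln difference was not tested.

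Alveolar type 1 markers, of which 8 were tested, were mixed, with Aqp5 at a log2 fold change of 1.14, Rtkn2 at 0.96 and Ager at -1.10. They summed to between 1853 and 2628 CPM in K-Ras samples and between 2370 and 2468 CPM in K-Ras Mll4-/- samples. Alveolar type 2 markers summed to between 22861 and 35022 CPM in K-Ras samples and between 29249 and 30395 CPM in K-Ras Mll4-/- samples, with Sftpb at 1.03, Sftpa1 at -0.37 and Sftpc at -0.30. Both sums overlapped between genotypes.

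Endothelial markers summed lower in K-Ras Mll4-/- samples, at between 3671 and 4628 CPM against between 7271 and 7685 CPM, with Vwf at a log2 fold change of -1.20, Cldn5 at -0.99 and Egfl7 at -0.90. Fibroblast markers did too, at between 917 and 923 CPM against between 1195 and 2616 CPM, with Col1a2 at -1.21, Pdgfra at -1.20 and Col1a1 at -1.13. Ciliated markers summed to between 95.1 and 103 CPM against between 171 and 965 CPM. Foxj1 was at -3.09 (SE 1.03), Dnah9 at -2.63 (SE 0.85) and Dnah5 at -2.45 (SE 0.84). Their size rests largely on K-Ras replicate 2, where Foxj1 was at 222 CPM against 27.8 CPM in K-Ras replicate 1. Club cell sums overlapped, with Scgb1a1 at -1.83 (SE 0.81), Scgb3a1 at -1.66 (SE 0.57) and Bpifa1 at -1.47 (SE 1.01). Scgb1a1 was at 576 and 2995 CPM in K-Ras replicates 1 and 2, and Bpifa1 at 9.16 and 75.2 CPM, so replicate 2 decides their size. Immune sums overlapped too, with Itgam at -1.55 (SE 0.46), S100a8 at -1.41 (SE 0.66) and Nkg7 at 0.89 (SE 0.24). S100a8 was at 69.2 and 17.9 CPM in K-Ras replicates 1 and 2. In these 7 lists edgeR and limma-voom called 0 genes and the replicate block, with 1.36% of all genes called, called Pdgfra lower. DESeq2, with 10.2% of its genes called, called 7 of 8 endothelial, 6 of 8 ciliated, 2 of 8 club cell, 2 of 8 alveolar type 1, 1 of 8 fibroblast, 1 of 8 immune and 0 of 8 alveolar type 2 markers. All of these were lower in K-Ras Mll4-/- samples, except 1 of the alveolar type 1 calls. Their part in the differences of the 8 genes was not tested.

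Cpe works with the prohormone convertases in neuroendocrine cells, so 12 genes of that system were read beside it. Of these 5 passed the filter and 0 were called by edgeR, with 1 at an unadjusted p under 0.05, against 21.8% of all genes tested. DESeq2, with 10.2% of its genes called, called Calca lower. The median log2 fold change was -0.61. Calca, the calcitonin peptide gene, was at 2.03 and 1.69 CPM in K-Ras replicates 1 and 2 and at 0.229 and 0.403 CPM in K-Ras Mll4-/- replicates 1 and 2 (log2 fold change -2.52, SE 0.48, edgeR adjusted p = 0.147). Pcsk1 and Scg3 each had a log2 fold change of -0.61 (SE 0.83 and 0.47). Chga, Insm1 and Pcsk2 were each below the filter. The list summed to between 8.88 and 13.0 CPM in K-Ras samples and between 7.14 and 7.62 CPM in K-Ras Mll4-/- samples. Without Calca, a sum taken after its values were seen, the list gave 11.0 and 7.19 CPM in K-Ras replicates 1 and 2 and 7.39 and 6.73 CPM in K-Ras Mll4-/- replicates 1 and 2, and the groups overlapped.

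Glial and neuronal markers, read because Gpm6a and Cpe are known from neurons, summed to between 49.5 and 78.9 CPM in K-Ras samples and between 43.6 and 58.9 CPM in K-Ras Mll4-/- samples. Of 8 listed 7 passed and 0 were called by edgeR or DESeq2. With edgeR 1 had an unadjusted p under 0.05, against 21.8% of all genes tested. S100b and Stmn2 had log2 fold changes of -0.74 (SE 0.52) and -0.64 (SE 0.21).

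**Figure D5:**
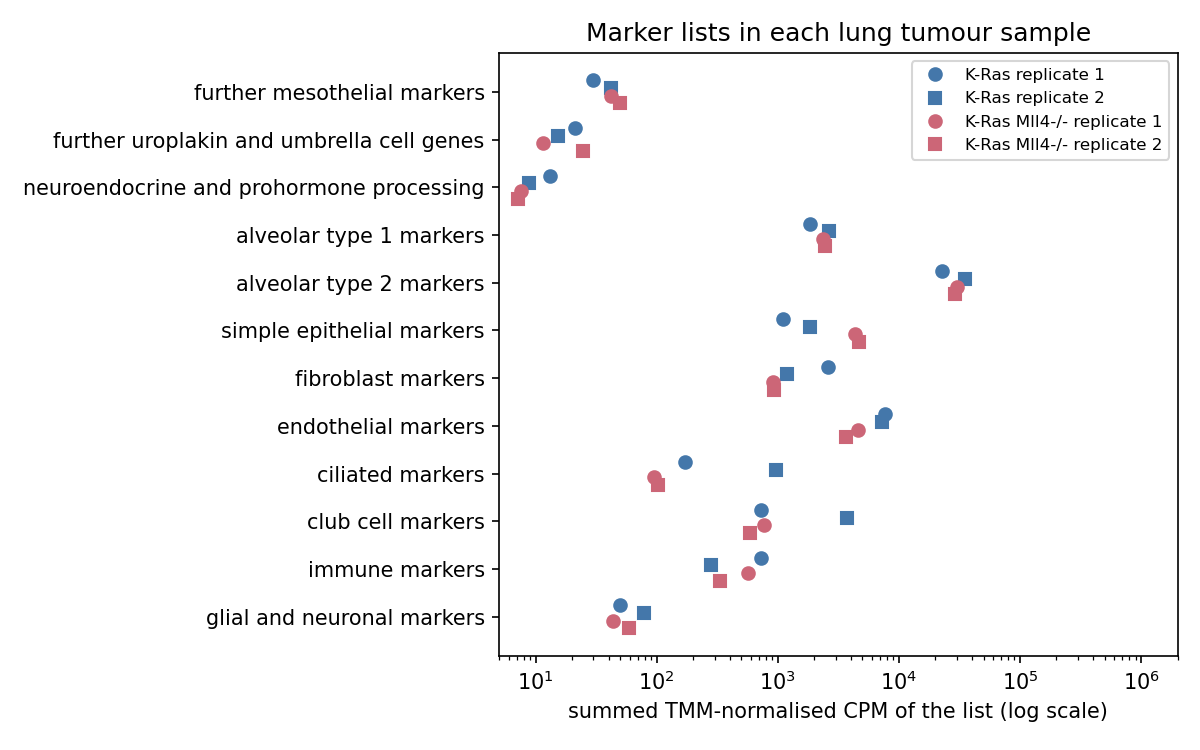
Summed TMM-normalised CPM (log axis) of each marker list in each of the 4 samples. Simple epithelial markers sum to at least 4338 CPM in both K-Ras Mll4-/- samples against at most 1839 CPM in K-Ras samples. The further mesothelial markers sum to 42.01 and 49.95 CPM in K-Ras Mll4-/- samples against 29.8 and 41.8 CPM in K-Ras samples.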

How the data were processed

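The authors deposited unscaled read counts for each gene symbol in HTSeq layout. The submitters' processing notes name CASAVA 1.4, STAR, HTSeq and mm9. Annotation and strand setting are not given in the sources used here. In GENCODE M21 the exons of the 8 genes share no bases with exons of another gene. Groups and replicate numbers came from sample titles. All 4 samples were fitted with edgeR 4.0.16 in R 4.3.3 (filterByExpr with a minimum count of 10, TMM, robust quasi-likelihood test, Benjamini-Hochberg over all genes tested, threshold 0.05). The SE is the log2 fold change divided by the square root of F. The code of the fit was tested on simulated counts with the same spread for all genes. That check does not cover the spread seen in these samples. Log2 CPM used a prior count of 2. Exon lengths and GC came from GENCODE M21, and neighbours and promoters from RefSeq GRCm38.p6, matched by symbol.

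The members and lists were chosen with earlier results of these data known. Counts of calls and p-values in the lists are therefore a description. Named are all members, all genes of the further mesothelial and uroplakin lists, the 3 largest absolute changes of each other list, neighbours of Msln, Upk3b and Upk1b, and the 5 genes closest in profile to Msln and Upk3b. Others were chosen after their values were seen. Alternatives were other scalings, filters and tests (DESeq2 1.42.0, limma-voom 3.58.1), the replicate block, leaving out each sample, and offsets for GC and length. Some items of the lists are not reported here.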

Additional observations from a re-analysis of the deposited data

How the results depend on the processing

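Offsets for GC and length were added after the data were seen. In place of 6 called genes, no count filter gave 44 (42 higher), the replicate block 217 (199 higher), the replicate block combined with these offsets 131 (120 higher), DESeq2 1613 (813 higher) and limma-voom 0 (3228 at an unadjusted p under 0.05), and leaving out single samples gave 0 to 528, the latter without K-Ras replicate 1 (110 higher, 418 lower). Against 0 called members, the replicate block, DESeq2 and the replicate block with the offsets each gave 1, Msln. Over all genes the replicate block called 1.36% and DESeq2 10.2%, and the replicate block with the offsets called 131 of 16001. Since the members were selected on these counts, nothing is read from these calls. The replicate numbers are not stated to mark a shared mouse or day, and deviations of same-numbered samples correlated at 0.21 across genes. The median log2 fold change of the further mesothelial markers, -0.27, became -0.13 with the filter of 50 reads (5 genes), -0.16 with the offsets and -0.15 with the replicate block and the offsets, and ranged from -0.40 to -0.082 when samples were left out. That of the further uroplakin and umbrella cell genes, 0.87, ranged from -0.13 to 1.55 when samples were left out. Over the 14 alternative fits Gpm6a was positive in 2, and Lrrn4 and Upk1a were each positive in 1 of the 13 fits that tested them. The cause of these shifts was not tested. With 2 samples against 2, an exact two-sided permutation test cannot go below 0.333. Below about 25 reads per library, as for Upk3b, Wt1, Lrrn4 and Upk1a, counting error alone allows the intervals given with each.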
